A study of Homo sapiens with 6 samples.

Results

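Heat shock and chaperone genes were read from RNA-seq of 92.1 cells, an established human uveal melanoma line. They were the rows whose symbol began with HSPA, HSPB, HSPD, HSPE, HSPH, HSP90, HSF, DNAJ, BAG with a number or CCT with a digit, plus TCP1, and 72 of the 12306 rows met this rule. A further 9 rows with such a name carried a pseudogene suffix (-PS) and were left out. Of the 72, 43 encode proteins of the cytosol or nucleus, 12 of the endoplasmic reticulum (ER) and 7 of mitochondria; 3 are heat shock factors, and 7 have another or an uncertain location. These locations came from textbook knowledge. Cells had been treated for 2 h with 1 µM VS-4718, which blocks focal adhesion kinase, or with DMSO vehicle, in serum-containing RPMI-1640 medium. Each group held 3 libraries, all of this 1 line. Whether these came from separate cultures is not stated, so the spread behind each p-value is that between these libraries and may be technical.

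Chaperones bind unfolded or newly made proteins and help them fold. HSP70 proteins do so in cycles driven by ATP: J proteins (DNAJ genes) bring clients and start ATP hydrolysis. Exchange factors such as BAG3 and the HSP110 proteins release the nucleotide. HSP90 acts later in folding, on kinases and hormone receptors among others, and the ring-shaped chaperonins TRiC (CCT genes and TCP1) in the cytosol and HSPD1 with its lid HSPE1 in mitochondria enclose their clients. When unfolded proteins accumulate in the cytosol, heat shock factor 1 (HSF1) binds heat shock elements and induces HSPA1A, HSPA1B, DNAJB1, HSPH1 and BAG3; unfolded proteins in the ER instead induce HSPA5, HSP90B1, DNAJB9 and DNAJC3 through the unfolded protein response.

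Promoter windows are shown for 3 cytosolic and 2 ER members that hold a sequence element of 1 of these responses. Most member windows held none, those of HSPH1, BAG3, DNAJB9 and DNAJC3 among them. RefSeq windows (GRCh38.p14) run from 250 bases before to 50 bases after an annotated start and were found for 65 of the 72 members, in 91 windows. Capitals mark a heat shock element, searched as GAANNTTC (inverted repeats) and GAANNTTCNNGAA (a longer form that contains the first), or an ER stress element, searched as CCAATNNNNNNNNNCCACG, on both strands. HSPA1B encodes a stress-inducible HSP70, HSPA8 the constitutive HSP70, DNAJB1 an inducible J protein, HSPA5 the ER HSP70 (BiP) and HSP90B1 the ER HSP90 (GRP94). The windows are chr6:31827488-31827787 (+) for HSPA1B, chr19:14518348-14518647 (-) for DNAJB1, chr11:123062087-123062386 (-) for HSPA8, chr9:125241294-125241593 (-) for HSPA5 and chr12:103930160-103930459 (+) for HSP90B1.
HSPA1B: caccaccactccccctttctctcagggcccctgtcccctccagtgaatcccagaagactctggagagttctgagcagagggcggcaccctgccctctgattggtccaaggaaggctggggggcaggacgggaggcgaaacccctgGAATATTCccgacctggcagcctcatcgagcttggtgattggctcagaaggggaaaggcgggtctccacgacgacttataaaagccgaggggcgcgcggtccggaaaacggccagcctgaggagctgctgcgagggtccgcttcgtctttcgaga
DNAJB1: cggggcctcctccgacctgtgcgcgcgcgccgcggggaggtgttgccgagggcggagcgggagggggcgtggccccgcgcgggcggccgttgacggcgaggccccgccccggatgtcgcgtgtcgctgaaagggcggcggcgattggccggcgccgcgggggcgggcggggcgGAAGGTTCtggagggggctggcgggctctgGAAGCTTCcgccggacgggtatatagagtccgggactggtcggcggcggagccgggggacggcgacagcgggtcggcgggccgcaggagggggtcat
HSPA8: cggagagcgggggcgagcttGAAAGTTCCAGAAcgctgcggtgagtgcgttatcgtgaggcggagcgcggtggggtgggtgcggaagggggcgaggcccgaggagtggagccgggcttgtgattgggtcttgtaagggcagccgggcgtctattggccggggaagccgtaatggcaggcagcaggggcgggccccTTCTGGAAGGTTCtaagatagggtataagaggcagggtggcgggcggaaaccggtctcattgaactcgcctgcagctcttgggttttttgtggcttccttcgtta
HSPA5: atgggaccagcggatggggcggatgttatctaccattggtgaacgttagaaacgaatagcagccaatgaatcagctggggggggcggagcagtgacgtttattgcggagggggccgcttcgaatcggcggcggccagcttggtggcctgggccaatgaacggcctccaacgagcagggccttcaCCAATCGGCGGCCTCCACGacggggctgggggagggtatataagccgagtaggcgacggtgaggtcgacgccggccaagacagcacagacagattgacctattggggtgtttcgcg
HSP90B1: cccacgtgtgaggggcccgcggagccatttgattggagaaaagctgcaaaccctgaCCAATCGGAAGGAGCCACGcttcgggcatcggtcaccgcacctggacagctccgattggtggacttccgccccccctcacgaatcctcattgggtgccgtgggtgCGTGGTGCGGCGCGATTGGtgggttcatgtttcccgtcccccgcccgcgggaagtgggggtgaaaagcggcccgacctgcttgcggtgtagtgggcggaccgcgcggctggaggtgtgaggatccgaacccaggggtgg

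GAANNTTC was present in 14 of the 91 member windows (15.4%), and in 6.77% of all 35116 promoter windows of that length. Of those 14 windows 13 belonged to cytosolic members and 1 to a mitochondrial one, HSPD1; none of the 11 ER windows held it. The longer form was present in 6 member windows (6.59%) and in 0.490% of all windows. No window was found for BAG4, DNAJC1, DNAJC22, HSF1, HSPA14, HSPB11 and HSPB2. The ER stress element stood in the HSPA5 and HSP90B1 windows, at -66 to -48 bases from the start in HSPA5, and in 0.0769% of all windows. A match describes these letters only and was not taken as a bound site.

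The table gives log2 of a TPM-like value (abundance per transcript length, scaled to a fixed total) per gene symbol, so read depth is unknown. On the linear scale the columns summed to between 836696 and 840714 in VS-4718 libraries and between 836527 and 837670 in vehicle libraries, and rank correlations between libraries (Spearman, across tested rows) were 0.983 to 0.985 within groups and 0.981 to 0.984 between them. Many row names are mouse symbols written in capitals, whereas the cells are human and the build named is GRCh38. The set of transcripts used for matching is not known here. Levels of different rows are therefore compared with caution, and rows of related genes (HSPA1B, HSPA1L, HSPA2 and HSPA8; HSP90AA1 and HSP90AB1) may share reads. Of 12 melanocyte lineage markers 11 had a row and their summed values were 7173 to 7855 TPM-like units in VS-4718 libraries and 7393 to 7973 in vehicle libraries; PMEL, SOX10, MITF and TYRP1 were well above the median level, while DCT, TYR and MLANA were near or below 1 unit. Markers of fibroblasts (5 of 7 with a row), immune cells (1 of 7) and epithelium (1 of 6) were too low to test, and endothelial markers (3 of 6 with a row) summed to 23.9 to 28.8 units in VS-4718 libraries and 21.9 to 26.6 units in vehicle libraries.

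No heat shock or chaperone gene passed the test after 2 h of VS-4718. Of the 72 members 63 were high enough to be tested, and 0 of them passed limma with Benjamini-Hochberg adjustment over all 9229 tested rows (smallest adjusted p = 0.44); the share of all tested rows that passed was 0.13%, with 0.0867% lower and 0.0433% higher. At an unadjusted limma p under 0.05, 2 members were lower with VS-4718, HSPA4 and DNAJC16, and 0 were higher, against 9.76% of all tested rows in either direction, 6.74% lower and 3.02% higher. The VS-4718 and vehicle values did not overlap in 6 tested members (9.52%), all lower with VS-4718, against 16.4% of all tested rows in either direction and 11.2% lower. RNA was measured in bulk, so fewer cells with a transcript and less transcript per cell cannot be told apart.

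The intervals were narrow for most members. In 62 of the 63 tested members the 95% limma interval of the fold change excluded a 2-fold change in either direction, the exception being DNAJC16. So did the intervals of 8453 of all 9229 tested rows. In 52 members (82.5%) the whole interval lay within 0.5 log2 units of 0, that is between 29.3% lower and 41.4% higher; 61.0% of all tested rows had so narrow an interval around 0. The members stood above the typical row, with a median level of 5.63 log2 units against 3.99 for all tested rows, and their median SE was 0.099 against 0.12.

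**Figure D1:**
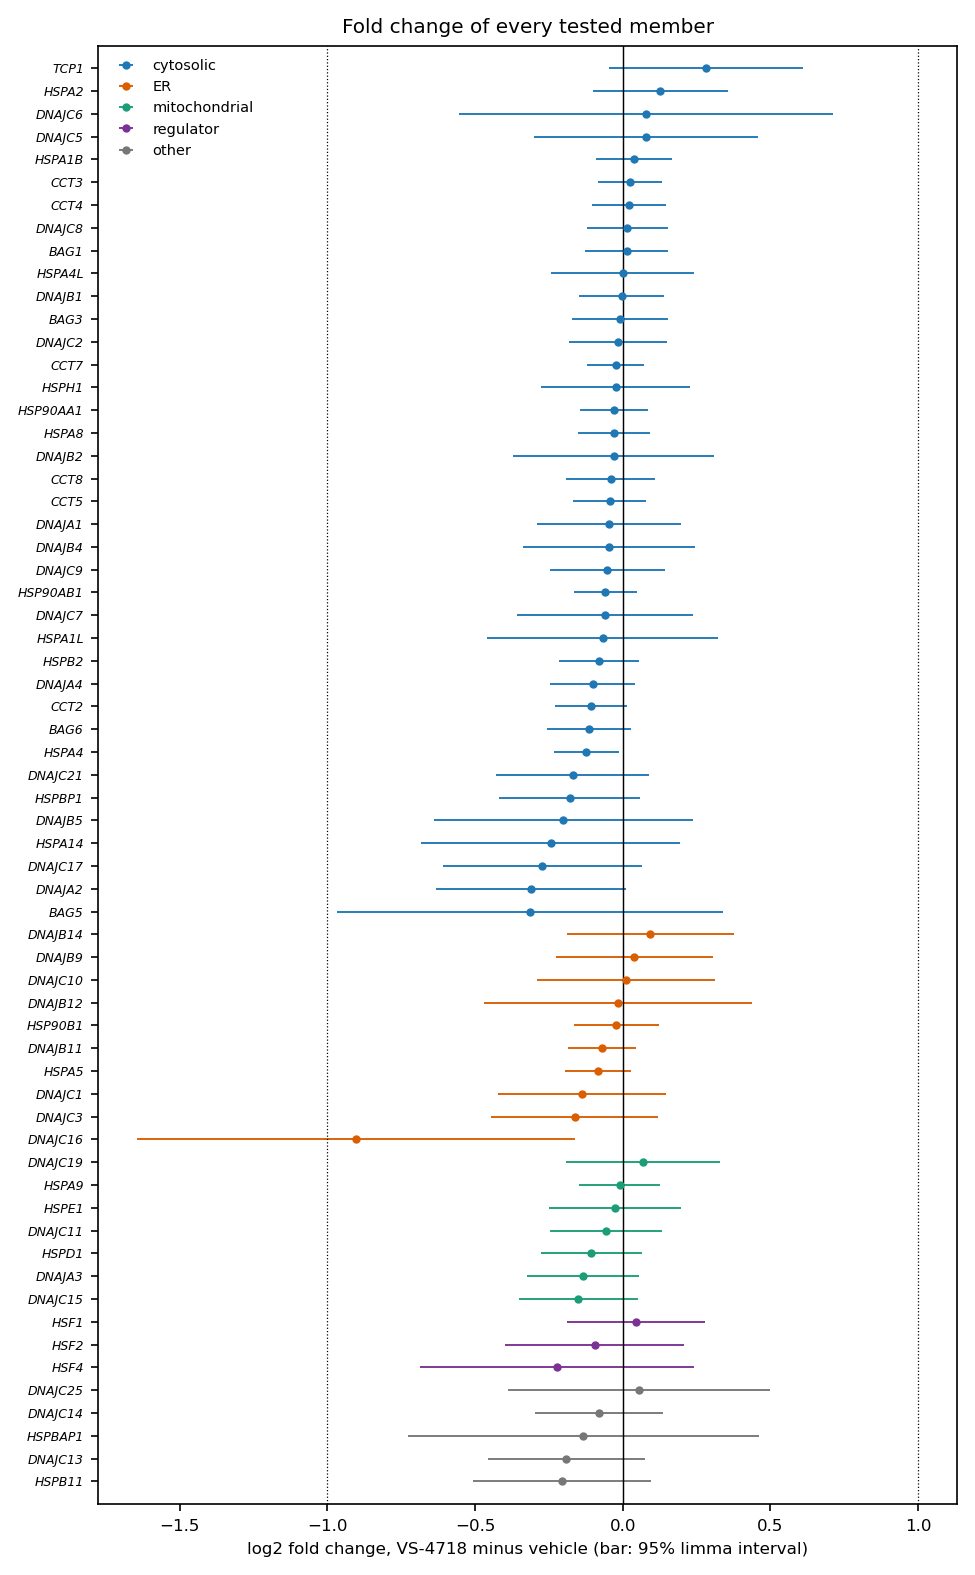
Fold change (x axis, log2, VS-4718 minus vehicle) of each of the 63 tested members, ordered by compartment, with the 95% limma interval as a bar and dotted lines at a 2-fold change. All intervals but those of HSPA4 and DNAJC16 cross 0, and only that of DNAJC16 passes a dotted line.

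The genes that HSF1 induces most had overlapping values in VS-4718 and vehicle libraries. HSPA1B stood at 6.31, 6.27 and 6.29 log2 units in VS-4718 libraries, against 6.20, 6.24 and 6.30 in vehicle libraries (log2 fold change 0.038, SE 0.054, 95% interval -0.091 to 0.17). DNAJB1 stood at 5.77, 5.75 and 5.85 in VS-4718 libraries, against 5.79, 5.75 and 5.84 in vehicle libraries (-0.0033, SE 0.061, interval -0.15 to 0.14). The values of both genes interleaved between the groups. BAG3, an exchange factor that routes HSP70 clients to autophagy, had 4.47, 4.43 and 4.47 with VS-4718 and 4.46, 4.45 and 4.48 with vehicle (-0.0089, interval -0.17 to 0.15). HSPH1, an HSP110 exchange factor, had 6.42, 6.31 and 6.43 with VS-4718 and 6.31, 6.65 and 6.28 with vehicle (-0.024, interval -0.28 to 0.23). In HSPH1 vehicle replicate 2 was the highest of the 6 libraries and the other vehicle libraries were the lowest. In limma these 4 genes had adjusted p between 0.85 and 0.99. HSPA1A and HSPB1, the other classic targets, had no row among those used here. Whether the HSPA1B row also took up HSPA1A reads is not known.

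The abundant constitutive chaperones of the cytosol also overlapped between the groups. HSPA8 averaged 9.41 ± 0.055 log2 units with VS-4718 and 9.44 ± 0.076 with vehicle (SD, n = 3 each), or 680 and 694 TPM-like units. HSP90AB1, the constitutive HSP90, averaged 10.88 ± 0.075 and HSP90AA1, its inducible paralog, 8.96 ± 0.061 with VS-4718; with vehicle they averaged 10.94 ± 0.041 and 8.99 ± 0.057. The intervals of the log2 fold change ran from -0.15 to 0.091 for HSPA8, from -0.17 to 0.048 for HSP90AB1 and from -0.15 to 0.086 for HSP90AA1, so that none reached a change of 0.25 log2 units. Of the 7 tested HSP70 rows of any compartment, 5 had lower and 2 higher means with VS-4718, between -0.24 for HSPA14, an HSP70 of the ribosome, and 0.13 for HSPA2, a form known best from testis.

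**Figure D2:**
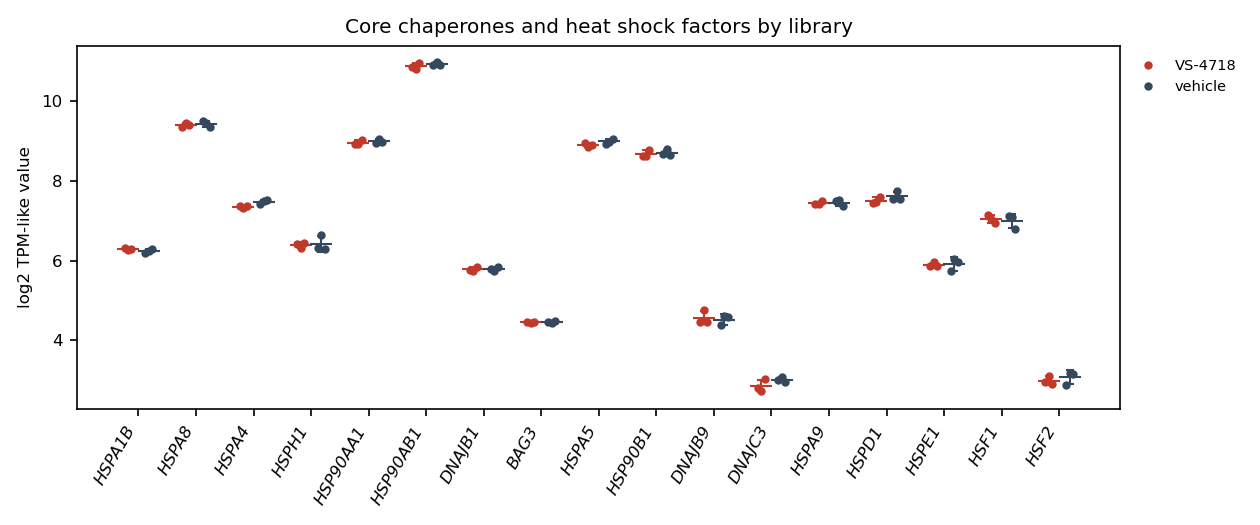
Level (y axis, log2 TPM-like value) of 17 core chaperones and heat shock factors in each library, VS-4718 left and vehicle right, with the mean and SD of 3 libraries. HSPA4 is the 1 gene shown whose 3 VS-4718 values all lie below the 3 vehicle values.

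HSPA4 had the smallest unadjusted p among cytosolic members. This HSP110 protein, an exchange factor for HSP70, stood at 7.38, 7.33 and 7.36 in VS-4718 libraries, against 7.43, 7.49 and 7.52 in vehicle libraries. All 3 VS-4718 values lay below the vehicle values, and the difference was small, -0.12 log2 units (SE 0.047, interval -0.23 to -0.012, or 8.18% lower; limma adjusted p = 0.49). Its relative HSPA4L had a log2 fold change of 0.00028 (SE 0.10).

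Among cytosolic and nuclear J proteins DNAJA2 had the largest difference. DNAJA2, a partner of HSPA8, stood at 5.02, 5.15 and 5.54 with VS-4718, against 5.49, 5.58 and 5.58 with vehicle (-0.31, SE 0.14, adjusted p = 0.53). DNAJC17, a nuclear J protein linked to splicing, had 3.31, 3.18 and 3.68 with VS-4718 and 3.60, 3.70 and 3.68 with vehicle (-0.27, SE 0.14, adjusted p = 0.59). In both, VS-4718 replicates 1 and 2 were the lowest libraries while VS-4718 replicate 3 lay among the vehicle values. DNAJA4, another HSP70 partner, did not overlap, with 5.977, 6.003 and 6.117 with VS-4718 against 6.150, 6.125 and 6.129 with vehicle (-0.10, SE 0.060, adjusted p = 0.63). Over all compartments 30 of 34 J protein rows were tested, of which 22 had lower and 8 higher means with VS-4718.

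Of the 5 BAG rows 4 were tested. BAG6, which guards membrane proteins before insertion and sends misfolded ones to the proteasome, stood at 6.33, 6.41 and 6.41 with VS-4718, against 6.55, 6.52 and 6.41 with vehicle (-0.11, SE 0.060, adjusted p = 0.60). The groups did not overlap, though the nearest values were equal to 2 decimals. BAG1 averaged 5.49 ± 0.0094 with VS-4718 and 5.48 ± 0.046 with vehicle. BAG5 was low and spread widely, at 1.32 ± 0.31 with VS-4718 and 1.63 ± 0.46 with vehicle (interval -0.97 to 0.34).

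Of 7 tested TRiC subunits 4 had lower and 3 higher means with VS-4718. TCP1, the alpha subunit, stood at 7.70, 7.74 and 8.10 with VS-4718, against 7.79, 7.39 and 7.52 with vehicle (0.28, SE 0.14, adjusted p = 0.57). The groups overlapped through vehicle replicate 1, and VS-4718 replicate 3 was the highest. CCT2, the beta subunit, stood at 8.03, 8.06 and 8.13 with VS-4718, against 8.12, 8.25 and 8.17 with vehicle (-0.11, SE 0.051, adjusted p = 0.56). The other 5 tested subunits had log2 fold changes between -0.045 for CCT5 and 0.025 for CCT3. Levels of the tested subunits ranged from 6.25 for CCT5 to 10.92 for CCT7 with VS-4718, per transcript length. With vehicle they ranged from 6.29 to 10.94. The complex holds its subunits in equal numbers as proteins, which these transcript levels do not measure. CCT6B, best known from testis, was close to absent at -2.24 ± 1.04 with VS-4718 and -2.39 ± 0.31 with vehicle, and CCT6A had no row among those used here.

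Small heat shock proteins were sparsely represented. HSPB2, known from muscle, had 5.56, 5.57 and 5.56 with VS-4718 and 5.61, 5.69 and 5.62 with vehicle; the groups did not overlap and the difference was -0.082 (SE 0.057, adjusted p = 0.68). HSPB11, a protein of the ciliary transport complex, had 6.56, 6.63 and 7.02 with VS-4718 and 6.82, 7.02 and 6.97 with vehicle (-0.21, SE 0.13, adjusted p = 0.64), where VS-4718 replicate 3 again lay among the vehicle values. HSPBP1, an exchange factor for HSP70, averaged 7.78 ± 0.15 with VS-4718 and 7.96 ± 0.15 with vehicle (adjusted p = 0.61).

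In the ER the principal chaperones overlapped between the groups, and the row with the largest difference was a low one. HSPA5 stood at 8.96, 8.86 and 8.91 in VS-4718 libraries, against 8.94, 8.98 and 9.06 in vehicle libraries (-0.084, SE 0.047, interval -0.20 to 0.028, adjusted p = 0.61). HSP90B1 had 8.64, 8.64 and 8.79 with VS-4718 and 8.67, 8.80 and 8.66 with vehicle (-0.022, interval -0.17 to 0.12). The upper bounds of these intervals correspond to 1.98% and 8.80% more transcript with VS-4718. DNAJB9, a J protein that the unfolded protein response induces and that holds the sensor IRE1 in check, had 4.47, 4.75 and 4.47 with VS-4718 and 4.38, 4.60 and 4.59 with vehicle (0.040, interval -0.23 to 0.31). DNAJC3, a J protein also known as an inhibitor of the kinase PERK, had 2.80, 2.73 and 3.03 with VS-4718 and 3.00, 3.09 and 2.95 with vehicle (-0.16, interval -0.45 to 0.12). DNAJB11, a soluble partner of HSPA5, had 6.946, 6.989 and 6.894 with VS-4718 and 7.004, 7.028 and 7.009 with vehicle, which did not overlap (-0.071, SE 0.048, adjusted p = 0.67).

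DNAJC16, an ER membrane J protein linked to autophagosome formation, had the largest difference of any tested member. It stood at 2.20, 1.38 and 1.49 in VS-4718 libraries, against 3.06, 2.09 and 2.62 in vehicle libraries, or 3.33 and 6.25 TPM-like units on average. VS-4718 replicate 1 was above vehicle replicate 2, so the groups overlapped. The log2 fold change was -0.90 (SE 0.31, interval -1.64 to -0.16, limma adjusted p = 0.44). Among the other membrane-bound J proteins of the ER, DNAJC1 averaged 4.92 ± 0.18 with VS-4718 and 5.05 ± 0.15 with vehicle, and DNAJB14 averaged 4.13 ± 0.16 and DNAJB12 3.12 ± 0.25 with VS-4718, against 4.04 ± 0.14 and 3.14 ± 0.29 with vehicle.

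All 7 mitochondrial members were tested, and every interval lay within 0.5 log2 units of 0. HSPA9, the mitochondrial HSP70 that pulls proteins through the inner membrane, averaged 7.45 ± 0.034 with VS-4718 and 7.46 ± 0.088 with vehicle (-0.010, interval -0.15 to 0.13). HSPD1 had 7.45, 7.48 and 7.61 with VS-4718 and 7.56, 7.74 and 7.55 with vehicle (-0.11, SE 0.072, adjusted p = 0.67). HSPE1 had 5.87, 5.96 and 5.86 with VS-4718 and 5.73, 6.05 and 5.98 with vehicle (-0.027, SE 0.094, adjusted p = 0.94). In both chaperonin rows the groups overlapped. HSPD1 and HSPE1 overlap on chromosome 2 and are transcribed in opposite directions, with HSPE1 inside the span annotated for HSPD1 (GENCODE 29, GRCh38: HSPD1 from 197486581 to 197516737 on the minus strand, HSPE1 from 197499994 to 197503457 on the plus strand). DNAJA3, a matrix J protein, had 5.38, 5.16 and 5.37 with VS-4718 and 5.44, 5.41 and 5.45 with vehicle, which did not overlap (-0.13, SE 0.080, adjusted p = 0.64). DNAJC15 and DNAJC19, J proteins of the import motor, had log2 fold changes of -0.15 (SE 0.085) and 0.068 (SE 0.11), and DNAJC11, of the mitochondrial membranes, had -0.057 (SE 0.080).

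The excluded pseudogene rows held more signal than their parents for 2 mitochondrial members. HSPE1-PS4 averaged 1272 TPM-like units with VS-4718 and 1217 with vehicle, while HSPE1 itself averaged 59.6 and 60.9 units. DNAJC19-PS averaged 83.2 units with VS-4718 and 75.6 with vehicle, and DNAJC19 averaged 20.0 and 19.0 units. Which human transcripts fed these rows is not known. With the pseudogene rows summed into their parents, a setting chosen after seeing the data, the log2 fold change was 0.053 (SE 0.039) for HSPE1, 0.13 (SE 0.087) for DNAJC19, -0.096 (SE 0.069) for HSPD1, -0.0090 (SE 0.055) for HSPA9 and 0.029 (SE 0.041) for CCT3. None passed limma over all rows (adjusted p from 0.66 to 0.97), and the sign turned for HSPE1.

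**Figure D3:**
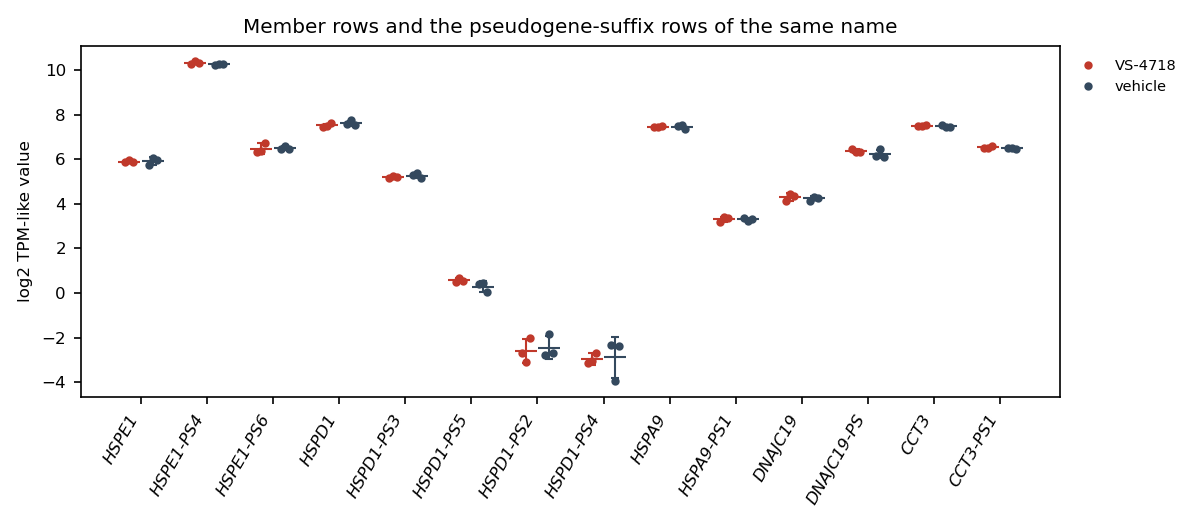
Level (y axis, log2 TPM-like value) of 5 member rows and of the 9 rows that carry the same name with a pseudogene suffix, in each library, VS-4718 left and vehicle right, with mean and SD of 3 libraries. HSPE1-PS4 lies near 10 log2 units in both groups, above HSPE1 near 6.

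The heat shock factors overlapped between the groups. HSF1 had 7.14, 7.06 and 6.95 with VS-4718 and 7.12, 7.09 and 6.80 with vehicle (0.046, interval -0.19 to 0.28). HSF2, which acts with HSF1 and in development, had 2.95, 3.11 and 2.90 with VS-4718 and 2.89, 3.19 and 3.17 with vehicle (-0.095, interval -0.40 to 0.21). HSF4, known for its role in the lens, averaged 2.00 ± 0.32 with VS-4718 and 2.22 ± 0.17 with vehicle. In limma the 3 factors had adjusted p between 0.74 and 0.90. HSF1 is regulated mainly as a protein, so its transcript level gives no measure of its activity. Among members given another or an uncertain location, DNAJC13, an endosomal J protein, averaged 5.04 ± 0.17 with VS-4718 and 5.23 ± 0.14 with vehicle. In the same class DNAJC14 averaged 3.33 ± 0.072 and HSPBAP1 0.69 ± 0.33 with VS-4718, against 3.41 ± 0.042 and 0.82 ± 0.30 with vehicle.

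The 9 untested members had a mean at or below 0.70 log2 units. They were BAG4, CCT6B, DNAJB6, HSPA12A and HSPB7 of the cytosol, DNAJC18 and HSPA13 of the ER, and DNAJC22 and DNAJC27. Their group means ran from -3.07 (HSPB7) to 0.60 (HSPA12A) with VS-4718 and from -2.87 (HSPB7) to 0.44 (HSPA12A) with vehicle. DNAJC22 did not overlap between the groups, at -0.52, -0.49 and -0.49 with VS-4718 against -0.65, -1.02 and -1.14 with vehicle, all under 1 TPM-like unit.

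Compared by compartment, the members' fold changes centred close to each other and close to the table as a whole. Of 38 tested cytosolic members 28 had lower means with VS-4718 and the median log2 fold change was -0.043. Of 10 tested ER members 7 were lower, with a median of -0.046, and of 7 mitochondrial members 6 were lower, with a median of -0.057. Over all 9229 tested rows 58.2% were lower, with a median of -0.032; over the 63 tested members 47 (74.6%) were lower, with a median of -0.046. With the libraries scaled to equal medians 35 of the 63 members (55.6%) and 49.3% of all rows were lower, with medians of -0.013 and 0.0022. The difference between compartments was not tested.

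**Figure D4:**
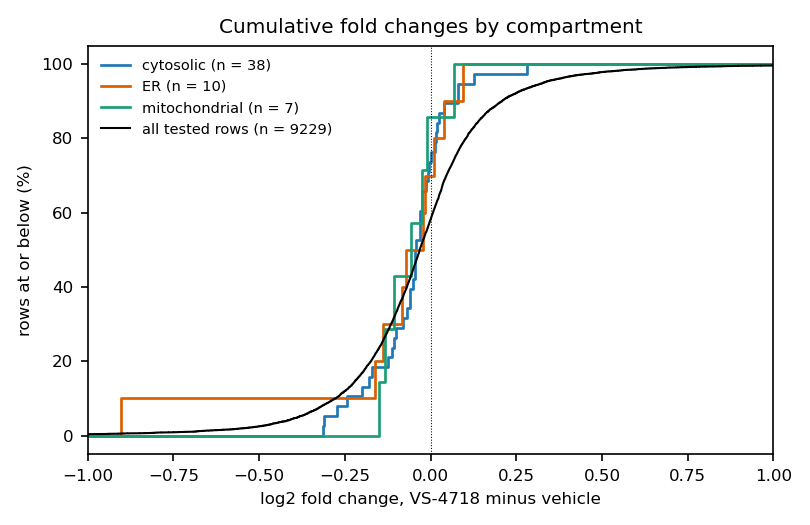
Cumulative share (y axis, percent of rows) of log2 fold changes (x axis, VS-4718 minus vehicle) for cytosolic, ER and mitochondrial members and for all tested rows; values beyond 1 log2 unit are outside the plot. The 3 compartments cross 50% between -0.057 and -0.043, close to the median of -0.032 of all tested rows, and the step at -0.90 is DNAJC16.

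VS-4718 replicate 3 was the highest VS-4718 library in the chaperone medians and in that of all tested rows. Expressed as each member's difference from its vehicle mean, the median over 38 cytosolic members was -0.085, -0.066 and 0.011 log2 units in VS-4718 replicates 1, 2 and 3, against -0.022, 0.010 and -0.0085 in vehicle replicates 1, 2 and 3. For the 10 ER members it was -0.069, -0.10 and 0.0096 with VS-4718, against -0.028, 0.045 and 0.013 with vehicle. For the 7 mitochondrial members it was -0.13, -0.033 and -0.0097 with VS-4718, against 0.0057, 0.067 and -0.015 with vehicle. Over all 9229 tested rows it was -0.025, -0.056 and -0.0059 with VS-4718, against 0.0046, 0.0019 and -0.0032 with vehicle. VS-4718 replicates 1 and 2 thus lay below all vehicle libraries in each compartment, as they did over all tested rows. VS-4718 replicate 3 lay among the vehicle libraries for ER and mitochondrial members and just above them for cytosolic members. Over all tested rows it too lay below them, at -0.0059 against a lowest vehicle value of -0.0032. The vehicle libraries are part of the mean from which they were measured. VS-4718 replicate 3 was the highest of its group in 34 of the 63 members (54.0%), and in 40.8% of all tested rows. Without it, 8 members were lower at an unadjusted limma p under 0.05 (CCT2, DNAJA2, DNAJA4, DNAJC9, DNAJC15, DNAJC17, HSP90AB1 and HSPB11) and none passed after adjustment (smallest adjusted p = 0.28); in that fit, with 62 members tested, 7.69% of all rows were lower at such a p.

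**Figure D5:**
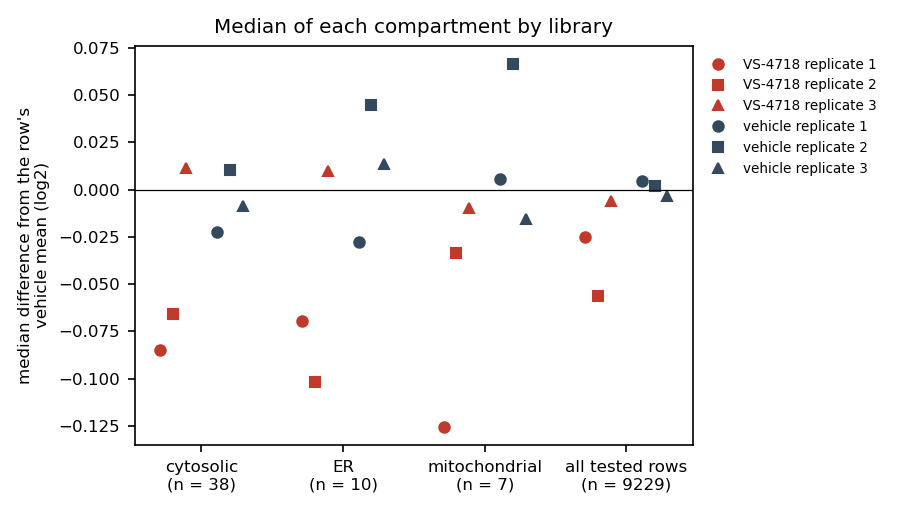
Median difference of a compartment's members from their own vehicle mean (y axis, log2) in each library, VS-4718 left and vehicle right, with the same over all tested rows. Cytosolic medians were -0.085 and -0.066 in VS-4718 replicates 1 and 2 and 0.011 in replicate 3.

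Summed on the linear scale, the 72 members made up 1.16%, 1.15% and 1.22% of the table in VS-4718 libraries, against 1.22%, 1.22% and 1.19% in vehicle libraries. Cytosolic members held 79.7% of that sum in each VS-4718 library and 78.9% to 79.9% in vehicle libraries. ER members held 11.4% to 11.6% with VS-4718 and 11.2% to 11.9% with vehicle, and mitochondrial members 5.65% to 5.86% with VS-4718 and 5.73% to 6.15% with vehicle. Among the 72 members the rows with the highest levels were CCT7 and HSP90AB1, which were nearly equal, and then HSPA8. These shares and ranks leave out the pseudogene rows. Those rows summed to 1520 to 1636 TPM-like units in VS-4718 libraries and 1510 to 1547 in vehicle libraries. Mitochondrial members summed to 548 to 594 units with VS-4718 and 575 to 629 with vehicle. HSPE1-PS4 alone averaged 1272 units with VS-4718 and 1217 with vehicle, more than HSPA8.

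The members whose promoter window held GAANNTTC were 13, of which 12 were tested. Of these 9 had lower means with VS-4718, with a median log2 fold change of -0.038 and a range from -0.11 (CCT2) to 0.28 (TCP1). The 391 tested rows of any kind with this motif in a window, these 12 members included, had a median of -0.037. The 2 members with the ER stress element, HSPA5 and HSP90B1, were given above. The 10 tested rows with this element, these 2 members included, had a median of -0.034.

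Other folding genes, listed by compartment, did not pass either. Of 28 cytosolic cofactors with a row 27 were tested and 0 passed limma in either direction after adjustment; 1 was lower and 3 were higher at an unadjusted p under 0.05 (6.74% and 3.02% of all tested rows), among them SQSTM1, an autophagy receptor (-0.15, SE 0.049), and PFDN2, a prefoldin subunit (0.22, SE 0.078). Of 27 ER folding and ER stress genes with a row 25 were tested, 0 passed, and 0 were lower and 2 higher at such a p, against the same 6.74% and 3.02% of all tested rows. These were HERPUD1, a component of ER-associated degradation that the unfolded protein response induces, with 3.87, 3.99 and 3.84 with VS-4718 and 3.51, 3.52 and 3.72 with vehicle (0.32, SE 0.10, adjusted p = 0.40), and SEL1L, its partner in the ubiquitin ligase complex, with 4.38, 4.11 and 4.39 with VS-4718 and 3.90, 4.09 and 3.84 with vehicle (0.35, SE 0.12, adjusted p = 0.42). Neither overlapped between the groups, as in 5.15% of all tested rows that were higher without overlap. UGGT1, a folding sensor, had the next smallest p (-0.23, SE 0.12). Of 18 mitochondrial folding and quality control genes with a row 16 were tested, 0 passed, and 2 were lower and 0 higher at such a p (6.74% and 3.02% of all tested rows): SPG7, a protease subunit, averaged 3.77 ± 0.22 with VS-4718 and 4.26 ± 0.18 with vehicle (-0.49, SE 0.15, adjusted p = 0.38), and TOMM40, the import channel, had -0.18 (SE 0.073, adjusted p = 0.50). PMPCB, the processing peptidase, followed with -0.18 (SE 0.078). The median log2 fold changes of the 3 lists were -0.0062, 0.019 and -0.052, against -0.032 over all tested rows.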

How the data were processed

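RNA of 92.1 cells was sequenced in 6 libraries. The submitters' processing notes name kallisto, without a version, and GRCh38; index and filters are not known here. The authors deposited 1 value per gene symbol and library on a log2 scale. On the linear scale the column sums are nearly equal (836527 to 840714), which is why the values are called TPM-like. Columns were assigned by group and replicate number in their names.

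Rows with a mean in the lowest 25% were left out (0.70 log2 units). The other 9229 were fitted with limma 3.58.1 in R 4.3.3 (group as the only term, trended variances), with two-sided p-values adjusted by Benjamini-Hochberg over all of them and a threshold of 0.05. Fold changes are VS-4718 minus vehicle with limma's SE and 95% interval. The script was tested on simulated data. Members and lists were chosen with earlier results of these data known. Named members were 20 core genes where a row existed, up to 6 per compartment (regulators and other locations as 1 group) with the smallest p, and 3 per companion list, of which 1 gene is not reported here; other members were named after their values were seen. The alternatives tried were each library left out, a replicate block, median scaling, no filter, a stricter filter (lowest 50%), no variance trend, sample quality weights, a pseudocount of 1 and, added after seeing the data, pseudogene rows summed into their parents. Sequences and their coordinates are RefSeq's (GRCh38.p14); gene coordinates are from GENCODE 29. Figures were drawn with matplotlib 3.10.9.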

Additional observations from a re-analysis of the deposited data

How the results depend on the processing

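The count of 0 members past limma's adjusted threshold held in every alternative run (smallest adjusted p over them 0.28, without VS-4718 replicate 3), while the 12 rows called over the whole table became 0 under the replicate block (793 had an unadjusted p under 0.05), 0 without the variance trend (910) and 0 to 7 with a library left out; these fits have other variances or fewer samples, and the cause was not tested. Residuals of libraries with the same number correlated at 0.14 (number 1), 0.055 (number 2) and 0.032 (number 3) across rows. Those of libraries with different numbers correlated at -0.094 to 0.049. The labels do not say whether same-numbered libraries share a batch, and correlations this small cannot decide it. The main fit used no pairing. With the block DNAJA2 and DNAJC16 were the members at an unadjusted p under 0.05. Members lower at such a p numbered 2, and 1 with median scaling, 1 with the stricter filter, 1 without the variance trend, 3 with quality weights (DNAJA2, DNAJC16 and HSPA4) and 0 to 8 with a library left out (8 without VS-4718 replicate 3, 1 when its replicate 2 was dropped, 1 without vehicle replicate 1 and 0 without vehicle replicate 3). Members higher numbered 0, and 1 (TCP1) with median scaling and 0 to 1 with a library left out (TCP1, without vehicle replicate 1). Rows of any kind at such a p, in either direction, numbered 901 of 9229 in the main fit. They numbered 869 with median scaling, 958 with quality weights, 910 without the variance trend and 674 of 6153 with the stricter filter. With a library left out they numbered 710 to 987 of 9229. Compartment medians stayed negative throughout: cytosolic from -0.068 to -0.0092, ER from -0.077 to -0.013 and mitochondrial from -0.12 to -0.012, the lowest without vehicle replicate 1. Differences near 0 turned sign. With median scaling HSPA8 came to 0.0036, HSPA9 to 0.024, HSPH1 to 0.0095, HSP90AA1 to 0.0041, HSP90B1 to 0.012, HSPE1 to 0.0072, DNAJB1 to 0.031 and BAG3 to 0.025; with quality weights HSPA9 came to 5.8e-05 and HSPH1 to 0.0092; with pseudogene rows summed in HSPE1 came to 0.053. With a library left out the range was -0.070 to 0.0053 for HSPA8, -0.059 to 0.026 for HSPA9, -0.090 to 0.094 for HSPH1, -0.065 to 0.0018 for HSP90AA1, -0.071 to 0.022 for HSP90B1, -0.12 to 0.039 for HSPE1, -0.034 to 0.020 for DNAJB1, -0.054 to 0.088 for DNAJB9, -0.018 to 0.0058 for BAG3, -0.056 to 0.10 for HSF1, -0.095 to 0.010 for DNAJC11 and -0.0012 to 0.16 for DNAJC19. Of 485 values of named members over the alternatives 453 kept their direction and 32 turned; none had a call to lose. Where a filter removed a gene no value was given. Depth is unknown, so no counting error can be given.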
